A study of Mus musculus with 20 samples.

Results

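Amino acid transporter genes of the mouse kidney are described here, chosen as all gene symbols of the carrier families Slc1a, Slc3a, Slc6a, Slc7a, Slc36a and Slc38a apart from Slc7a11, which gave 60 of the 24421 symbols counted. Of these 60, 44 reached a mean of at least 1 CPM (reads of a gene scaled to the size of the library) over the 20 kidney libraries. The 16 others held at most 275 reads each over all libraries together. A set of 3 of the symbols, Slc36a1os, Slc6a19os and Slc7a6os, name transcripts on the opposite strand of a transporter gene and not transporters.

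The libraries came from pieces of kidney of mice of mixed C57BL/6 and 129/SvJ background. In Fh1-/- mice, both alleles of Fh1, the gene of the tricarboxylic acid cycle enzyme fumarate hydratase, carried LoxP sites around exons 3 and 4 (Fh1 fl/fl), and both Rosa26 alleles carried CreERT2 (R26 CreERT2/CreERT2), a tamoxifen-dependent recombinase that this promoter expresses in all tissues. Fh1+/+ mice were littermates with the same CreERT2 alleles and no floxed Fh1. All animals were 12 weeks old and received 3 injections of 2 mg tamoxifen, so the controls share the recombinase and the drug. Kidneys were taken at day 5 or day 10 of induction, with 5 libraries for each genotype and day. The promoter restricts the recombinase neither to the kidney nor to its tubules. As the labels number samples without naming the animals, each p-value reflects the scatter of these libraries, which may be technical in part.

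Amino acids are filtered by the glomerulus and taken back almost whole by the proximal tubule. Carriers of the apical brush border bring them into the cell, several of them only when paired with a partner protein, and carriers of the basolateral membrane pass them to the blood. The heavy chains Slc3a1 (rBAT) and Slc3a2 (4F2hc) bring Slc7 light chains to the apical and the basolateral membrane, respectively. Other carriers feed growing or stressed cells. Their genes are known targets of the transcription factor ATF4 when amino acids run short or the endoplasmic reticulum is stressed.

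Libraries held 16654829 to 25001294 reads in genes. Fh1 itself was counted over the whole gene, at 249 to 421 CPM in Fh1-/- and 224 to 258 CPM in Fh1+/+ kidneys at day 10, and at 200 to 239 CPM and 219 to 265 CPM at day 5. Such counts include the exons outside the deletion and so do not check it. Replicates 1 and 3 of Fh1-/- at day 10 stood apart from the other 18 libraries on the first principal component (125 and 128 against -31.4 to 30.2). A list of 8 tubular injury markers summed to 133694 and 126518 CPM in these 2 libraries, to 2834 to 13470 CPM in the other 3 of the group, and to 917 to 2155 CPM in Fh1+/+ at day 10. Markers of proximal tubule segments S1 and S2 (8 genes) summed to 2794 and 3063 CPM in the same 2 libraries, against 6250 to 10158 CPM in the rest of the group and 8673 to 10883 CPM in the controls. Of this list, Slc5a2, Slc5a12, Slc34a1, Slc22a8, Lrp2 and Cubn were lower in them than in the rest of the group. Slc22a6 (710 and 796 CPM against 483 to 759 CPM) and Slc2a2 (116 and 120 CPM against 92 to 116 CPM) were not. The part of these markers in the results was not tested, and the main results are given with and without these libraries. Reads of 4 Y-linked transcripts were detected (98.1 to 139 CPM) in 12 libraries and were at most 1.03 CPM in the other 8, which were 3 of the 5 Fh1-/- and 2 of the 5 Fh1+/+ libraries at day 10, and 2 and 1 libraries at day 5. In pieces of tissue, fewer cells of a type and less RNA per cell cannot be told apart.

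In control kidneys 3 apical carriers, Slc3a1, Slc7a13 and Slc6a18, had the highest mean levels per length of transcript, given as CPM per kilobase of exon over the 10 Fh1+/+ libraries of both days. Slc3a1, the heavy chain of the cystine carrier, was highest with 394 ± 50.1 (SD, n = 10). Slc7a13 averaged 282 ± 208 and ranged from 0.487 to 511 between control libraries, and Slc6a18, a carrier of glycine and alanine, stood at 206 ± 50.4. The light chain Slc7a9, which pairs with Slc3a1, reached 51.4 ± 9.67, the glutamate carrier Slc1a1 39.6 ± 5.39 and the neutral amino acid carrier Slc6a19 37.8 ± 9.21, and the ranges of these last 3 overlapped. Of the stress-induced genes, the heavy chain Slc3a2 stood at 61.3 ± 12.3 and the light chain Slc7a5 (LAT1) at only 1.69 ± 0.356. On the basolateral side, the light chains Slc7a7 (34.7 to 80.3) and Slc7a8 (24.3 to 63.9), which pair with Slc3a2, overlapped in range, and the glutamine carrier Slc38a3 was lower at 15.5 ± 4.56.

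**Figure D1:**
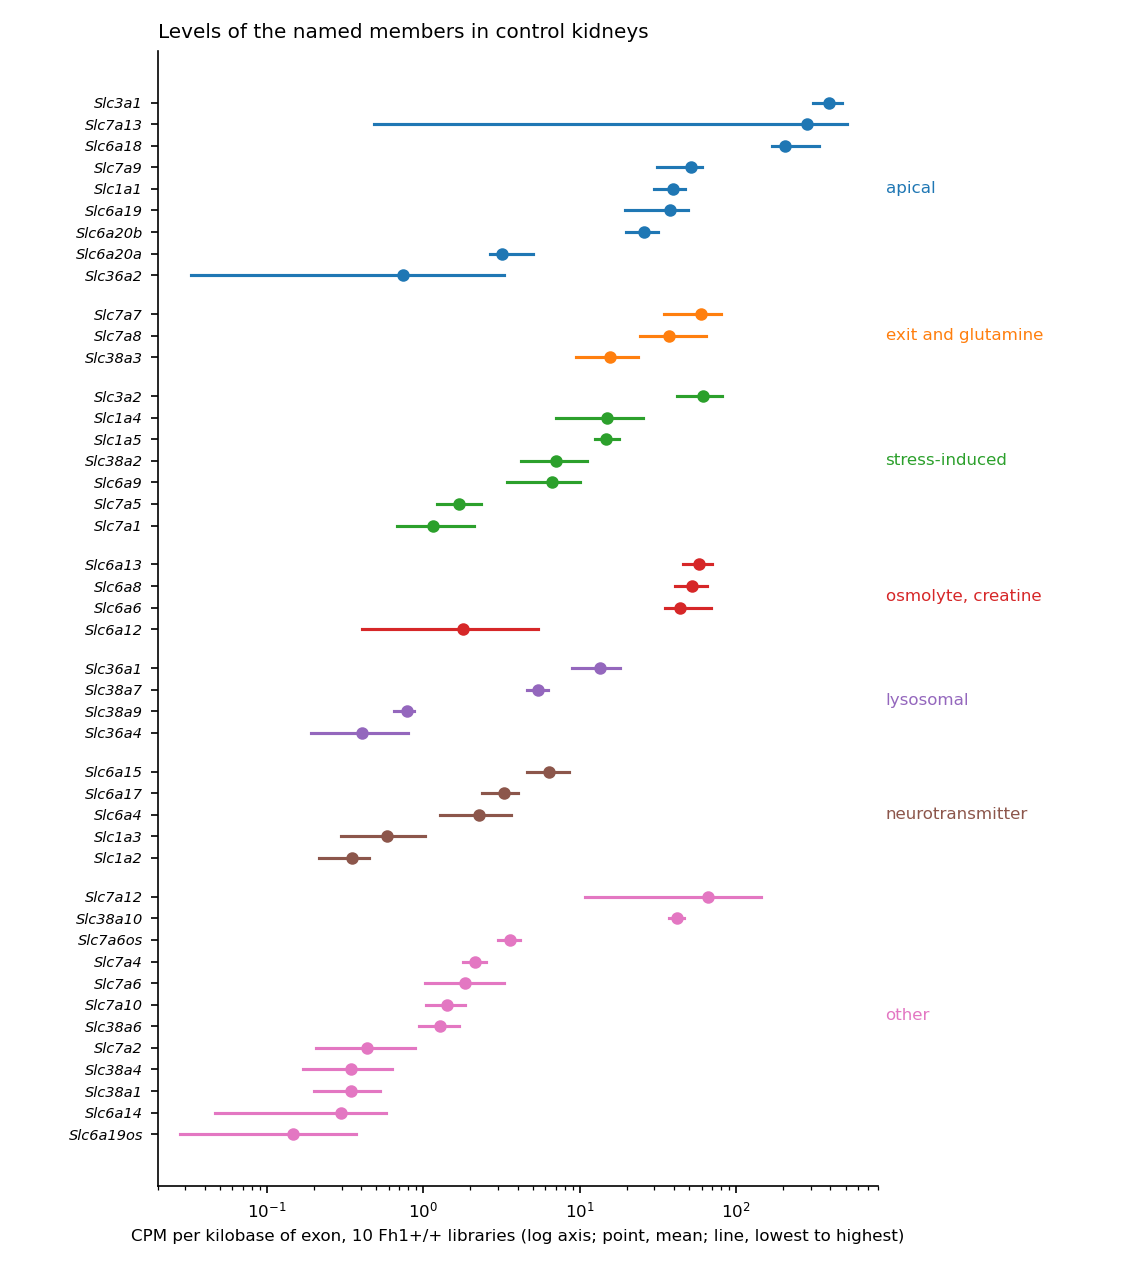
Level of the 44 named members in control kidneys, as CPM per kilobase of exon on a log axis, by group. Points are means and lines the lowest to the highest of 10 Fh1+/+ libraries. Slc3a1 is highest at 394, and Slc7a13 and Slc36a2 have the widest ranges.

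At day 10, no member passed edgeR's quasi-likelihood test at the thresholds of the study, an adjusted p below 0.01 and a log2 fold change beyond 0.58 in either direction (0 of 44 tested, as against 0.0279% of the 14360 genes tested called higher and 0.0279% called lower). At an unadjusted p below 0.05, 10 members were higher in Fh1-/- (22.7% of members, against 15.1% of all genes) and 3 were lower (6.82% against 11.9%). DESeq2, the tool named in the study's methods, called 4 members higher, Slc1a5, Slc3a2, Slc6a8 and Slc6a19os, and 1 lower, Slc6a7, of 48 (8.33% and 2.08% of members, against 3.26% and 1.95% of all genes). The 5 Fh1-/- libraries lay wholly above the 5 controls for 2 members, Slc1a5 and Slc6a8, and wholly below for 2, Slc6a20b and Slc6a7 (4.55% in each direction, against 4.42% and 3.43% of all genes). The share of non-overlapping members is thus near the background. Slc6a7 passed the filter on low counts only through the 5 controls, where it was high, and Slc6a19os through 4 Fh1-/- libraries and 1 control, so their place in these counts is no support for a difference. Without replicates 1 and 3 of Fh1-/-, edgeR called 0 members and DESeq2 called Slc6a20b lower.

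By group, all 7 stress-induced genes tested were above 0, with a median log2 fold change of 0.60, against 0.00 over all genes tested. Of the 8 apical genes tested, 2 were above 0, with a median of -0.13. The 3 basolateral genes had a median of 0.51, the 4 osmolyte, creatine and betaine carriers 0.06, the 4 lysosomal carriers 0.05, the 6 carriers of the neurotransmitter group -0.36 and the 12 other members -0.02. Without replicates 1 and 3, the stress-induced median was 0.44 with 5 of 7 above 0, and the apical median was 0.05 with 5 of 8 above 0. The basolateral, osmolyte, lysosomal, neurotransmitter and other medians were then 0.42, 0.31, 0.22, 0.00 and 0.04. These groups were drawn up with earlier results of the same data known, so their direction is not independent evidence.

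**Figure D2:**
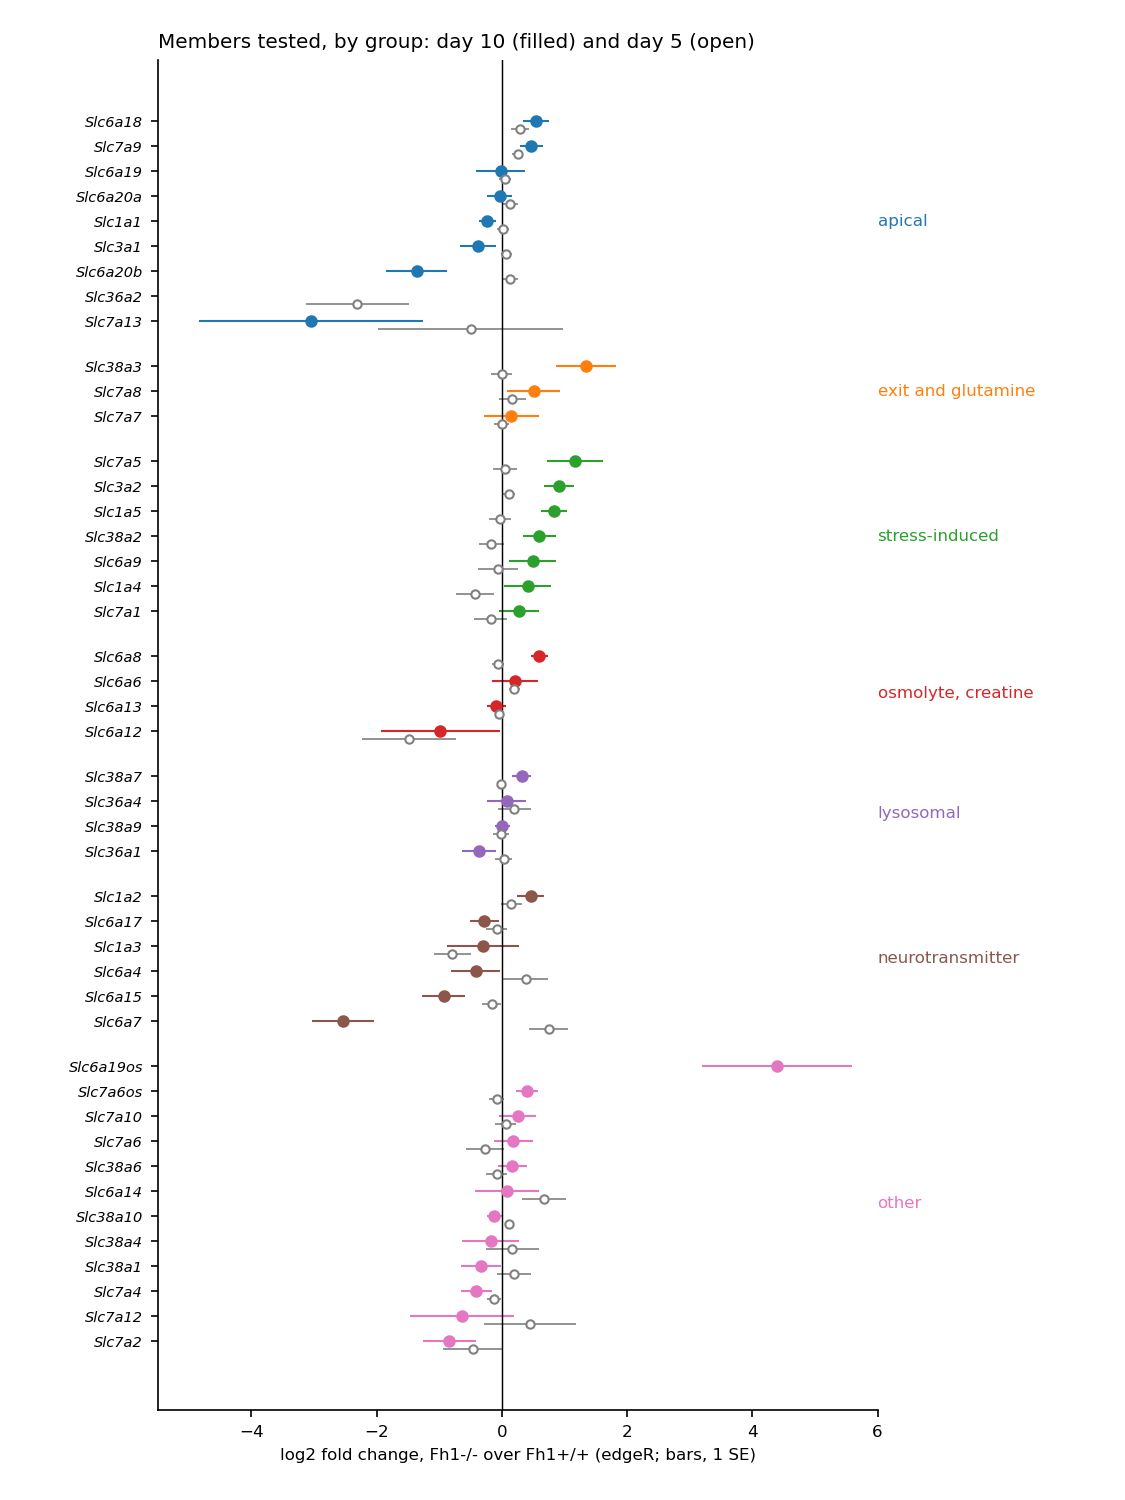
Log2 fold change of Fh1-/- over Fh1+/+ for each member tested by edgeR, with 1 SE, at day 10 (filled) and day 5 (open), by group. At day 10 all 7 stress-induced genes lie to the right of 0, while Slc6a7 (-2.54) and Slc6a20b (-1.36) lie to the left, and most day 5 values lie near 0.

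Among the stress-induced genes, Slc3a2 encodes the heavy chain 4F2hc. At day 10 it read 489, 314, 541, 326 and 274 CPM in Fh1-/- replicates 1 to 5 and 208, 280, 216, 164 and 147 CPM in Fh1+/+. All but Fh1-/- replicate 5 exceeded every control. The level was 1.90-fold that of the controls (log2 fold change 0.92 ± 0.24 SE), with an adjusted p of 0.064 by edgeR and 0.00523 by DESeq2. Without replicates 1 and 3 the log2 fold change was 0.58 ± 0.20 (edgeR adjusted p = 0.175).

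Slc1a5 (ASCT2), an exchanger that brings glutamine into cells, read 147, 77.5, 162, 80.2 and 106 CPM in Fh1-/- and 67, 67.1, 64.7, 61.1 and 59.8 CPM in Fh1+/+ at day 10. The groups did not overlap, and replicates 1 and 3 were highest. The difference was 1.78-fold (log2 0.83 ± 0.21 SE), with an adjusted p of 0.0602 by edgeR and 0.00544 by DESeq2. It was 0.46 ± 0.12 without replicates 1 and 3 (edgeR adjusted p = 0.104).

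Slc38a2 (SNAT2), a sodium-coupled carrier of small neutral amino acids, read 131, 64.6, 110, 81.1 and 126 CPM in Fh1-/- and 53.6, 98.5, 87.5, 48.6 and 45.9 CPM in Fh1+/+ at day 10. These values overlapped, and the log2 fold change was 0.60 ± 0.27 SE (adjusted p = 0.18 by edgeR and 0.134 by DESeq2). At day 10 the level also differed with Y-linked reads. Among the libraries with such reads it was 64.6 and 81.1 CPM in Fh1-/- against 45.9 to 53.6 CPM in 3 controls, and among those without it was 110 to 131 CPM in 3 Fh1-/- libraries against 87.5 and 98.5 CPM. At day 5 the Fh1+/+ libraries did not separate in this way, with 37.2 to 88 CPM in 4 libraries with Y-linked reads and 58.6 CPM in the 1 without. Fitted with the Y-linked level as a covariate, the log2 fold change was 0.49 ± 0.10 (edgeR adjusted p = 0.0352).

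Slc7a5 (LAT1), the light chain that takes up leucine and other large neutral amino acids, read 26.8, 6.81, 28.4, 5.61 and 10.6 CPM in Fh1-/- and 6.1, 7.58, 7.07, 8.72 and 4.86 CPM in Fh1+/+ at day 10. Replicates 2 and 4 of Fh1-/- lay within the control range. The log2 fold change of 1.17 ± 0.45 SE (edgeR adjusted p = 0.137) became 0.16 ± 0.25 without replicates 1 and 3. The cationic amino acid carrier Slc7a1 (0.27 ± 0.32), the alanine and serine exchanger Slc1a4 (0.41 ± 0.37) and the glycine carrier Slc6a9 (0.49 ± 0.37) had log2 fold changes close to their errors. In the controls, Slc1a4 and Slc6a9 also differed with Y-linked reads. With such reads, Slc6a9 held 23.5 and 32.5 CPM in Fh1-/- at day 10 against 33.9 to 47.5 CPM in Fh1+/+. Without them it held 31.9 to 76.1 CPM against 18.6 and 20.8 CPM. Slc1a4 held 63.6 and 137 CPM against 57.4 to 67.6 CPM with them, and 38.2 to 51 CPM against 27.7 and 32.2 CPM without. No test was made within these libraries. Slc7a3, another cationic carrier, averaged 0.401 CPM over all libraries and was not tested by edgeR at day 10.

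**Figure D3:**
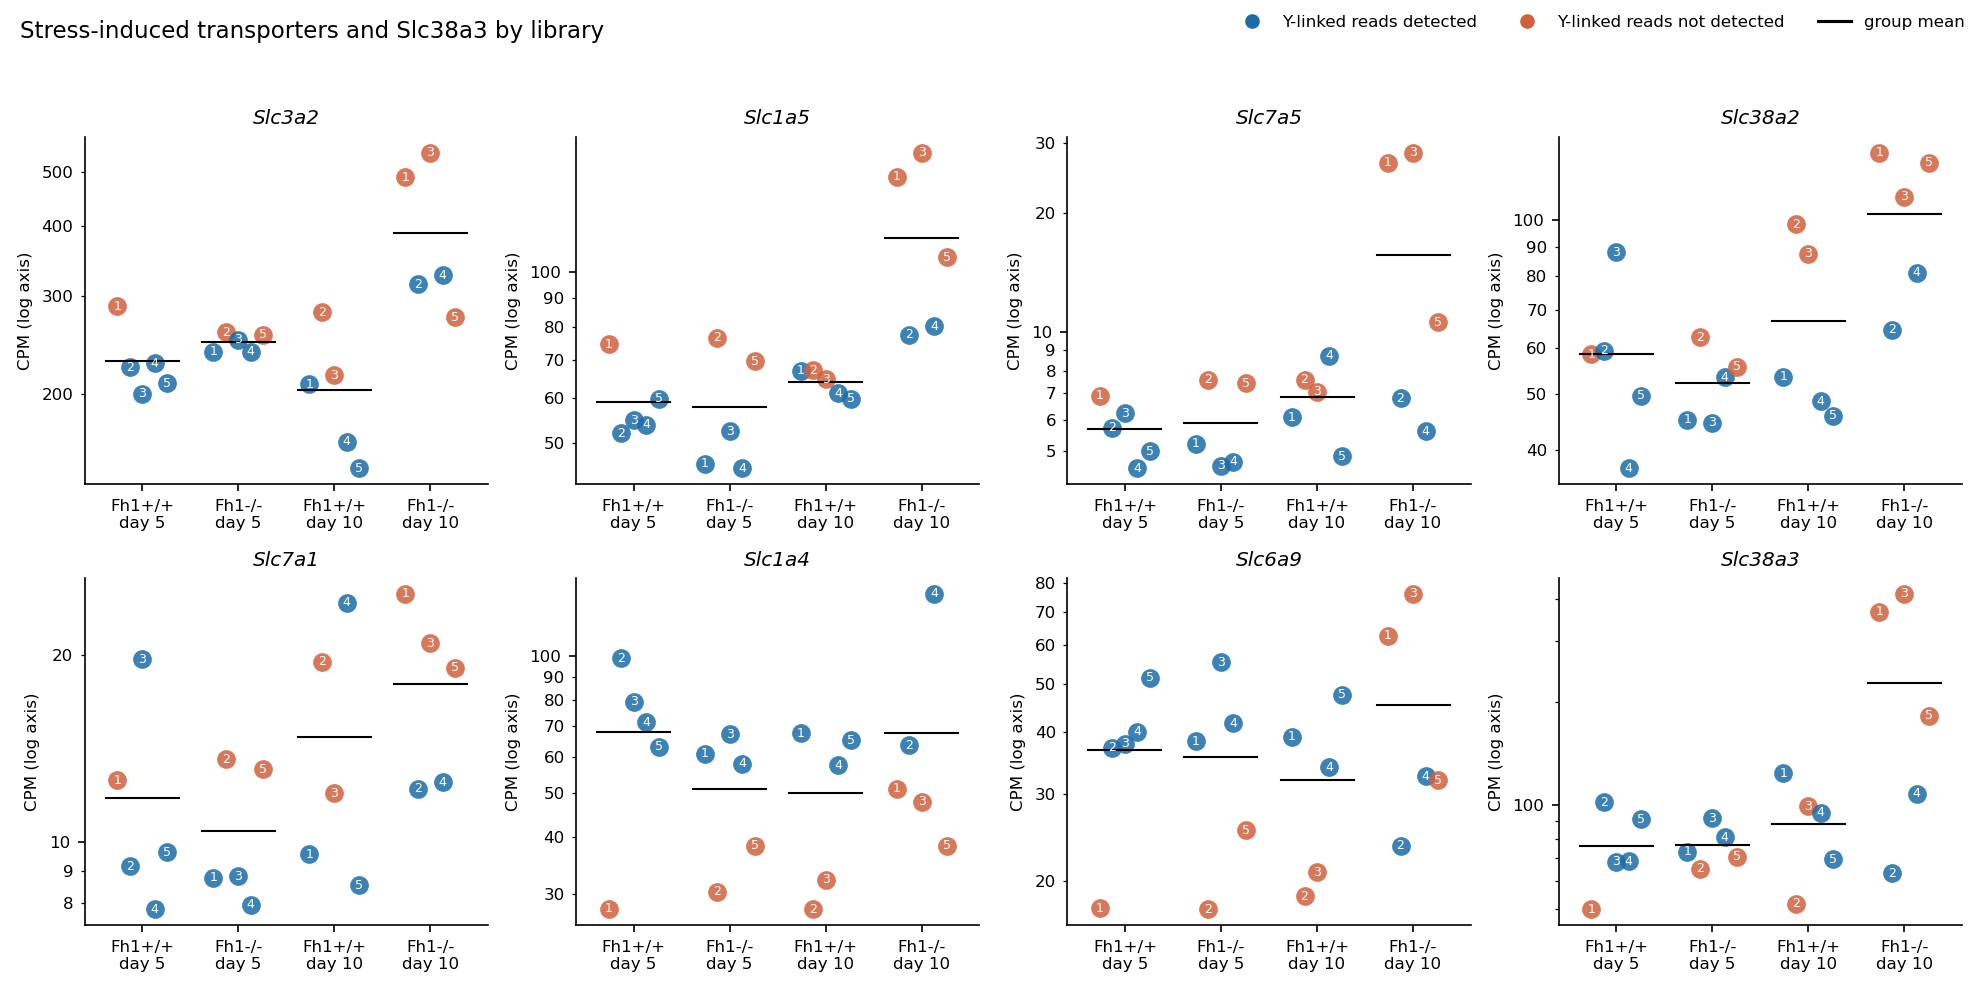
CPM (log axis) of 7 stress-induced members and Slc38a3 in each library, by genotype and day. Numbers are replicates, colours show whether Y-linked reads were detected, and bars are group means. For Slc1a5 the 5 Fh1-/- libraries of day 10 lie above all 5 controls, and replicates 1 and 3 are highest for Slc3a2, Slc1a5, Slc7a5, Slc6a9 and Slc38a3.

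The amino acid response acts through a composite element bound by C/EBP and ATF proteins, whose core was searched as TGATGNAA on both strands. RefSeq promoter windows of 250 bases before to 50 after a transcript start (GRCm38.p6) were at hand for 43 of the 60 members, in 63 windows. The core was found in 3 of these windows (4.76%), of the genes Slc1a4 and Slc7a7, and in 3.97% of all 32851 windows. The windows of Slc7a7 overlap and share a site, which is thus counted more than once. By gene, the core was found in 2 of the 43 members and in 1219 of all 27025 genes. A match is a description and not a binding site. The first 260 bases of the window are shown 5′ to 3′ for the stress-induced genes Slc3a2, Slc38a2 and Slc1a4 and for Slc7a7, with each match in capitals and the last 10 bases beginning at the start. They lie at chr19:8713888-8714147, chr15:96699719-96699978, chr11:20332704-20332963 and chr14:54417935-54418194, all on the minus strand. The windows of Slc3a2 and Slc38a2 hold no match, that of Slc1a4 holds 1 and that of Slc7a7 holds 2.
Slc3a2: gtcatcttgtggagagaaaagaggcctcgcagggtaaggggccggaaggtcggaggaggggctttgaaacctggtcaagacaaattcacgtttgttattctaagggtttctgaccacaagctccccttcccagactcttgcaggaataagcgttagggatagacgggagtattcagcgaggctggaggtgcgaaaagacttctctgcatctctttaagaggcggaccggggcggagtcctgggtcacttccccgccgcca
Slc38a2: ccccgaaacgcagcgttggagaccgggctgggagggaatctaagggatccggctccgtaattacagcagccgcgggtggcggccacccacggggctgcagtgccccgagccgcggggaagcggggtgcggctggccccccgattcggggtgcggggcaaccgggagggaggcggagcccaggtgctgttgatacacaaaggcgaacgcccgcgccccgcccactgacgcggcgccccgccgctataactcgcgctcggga
Slc1a4: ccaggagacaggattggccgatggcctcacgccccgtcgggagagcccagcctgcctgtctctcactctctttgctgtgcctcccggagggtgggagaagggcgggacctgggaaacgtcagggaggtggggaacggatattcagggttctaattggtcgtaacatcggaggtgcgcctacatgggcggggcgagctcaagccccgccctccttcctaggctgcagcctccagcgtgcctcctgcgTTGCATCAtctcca
Slc7a7: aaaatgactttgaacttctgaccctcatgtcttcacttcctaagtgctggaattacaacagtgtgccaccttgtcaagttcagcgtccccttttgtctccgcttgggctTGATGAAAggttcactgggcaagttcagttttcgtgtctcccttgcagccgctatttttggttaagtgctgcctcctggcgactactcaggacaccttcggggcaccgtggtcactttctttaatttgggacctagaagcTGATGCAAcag

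Of the basolateral carriers, Slc38a3 (SNAT3) takes up the glutamine from which the tubule makes ammonia. At day 10 it read 366, 63.5, 413, 108 and 182 CPM in Fh1-/- and 124, 51.6, 99.4, 95.1 and 69.7 CPM in Fh1+/+. Replicates 1, 3 and 5 exceeded every control, and replicates 2 and 4 did not. The log2 fold change was 1.35 ± 0.48 SE (adjusted p = 0.117 by edgeR and 0.0318 by DESeq2) and was 0.42 ± 0.35 without replicates 1 and 3. Slc7a8 (LAT2), which lets neutral amino acids out of the cell, read 414, 197, 443, 114 and 139 CPM in Fh1-/- against 165, 308, 192, 122 and 125 CPM, a log2 fold change of 0.51 ± 0.42 that was -0.28 without the same 2 libraries. Slc7a7 (y+LAT1), the exit path of lysine and arginine, had its values split within Fh1-/-. They were 72.9 and 69.4 CPM in replicates 1 and 3, 326 and 308 CPM in replicates 2 and 4 and 144 CPM in replicate 5, around a control range of 115 to 237 CPM (log2 fold change 0.15 ± 0.44 SE). Exons of Slc7a7 overlap those of Oxa1l on the opposite strand, and the strand setting of the counting was not given.

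Of the 8 apical carriers tested at day 10, 2 were higher and 1 was lower at an unadjusted p below 0.05 in edgeR, where 15.1% and 11.9% of all genes were. Slc6a20b, one of a pair of neighbouring genes of the imino acid carrier family, read 23.4, 152, 21, 92.5 and 98.4 CPM in Fh1-/- and 204, 168, 171, 200 and 243 CPM in Fh1+/+ at day 10. All 5 Fh1-/- libraries lay below all 5 controls, with replicates 1 and 3 lowest. The level was 0.388-fold that of the controls (log2 fold change -1.36 ± 0.49 SE), with an adjusted p of 0.119 by edgeR and 0.0364 by DESeq2. Without replicates 1 and 3 the log2 fold change was -0.79 ± 0.19 (edgeR adjusted p = 0.102), and DESeq2 called it. Beside it, the S1 and S2 markers summed to 2794, 10158, 3063, 6467 and 6250 CPM in the same Fh1-/- libraries, and their part in the result was not tested. Its neighbour Slc6a20a read 12, 11.4, 12.7, 13.3 and 18.2 CPM in Fh1-/- and 12.3, 12.8, 20.6, 11.7 and 10.9 CPM in Fh1+/+, with a log2 fold change of -0.03 ± 0.20. The authors' filter on mapping quality bears on reads that match both copies, and what it left of them was not examined. Reads in exons shared with genes on the other strand (Sacm1l for Slc6a20b, Ccr9 for Slc6a20a) may be split between genes.

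The promoter windows of this pair are shown because the neighbouring genes are set side by side above. They lie at chr9:123678823-123679082 (Slc6a20a) and chr9:123632529-123632788 (Slc6a20b) of GRCm38.p6, both on the minus strand, and the capitals mark the longest runs that both windows hold, of which there are 2 with 7 bases each.
Slc6a20a: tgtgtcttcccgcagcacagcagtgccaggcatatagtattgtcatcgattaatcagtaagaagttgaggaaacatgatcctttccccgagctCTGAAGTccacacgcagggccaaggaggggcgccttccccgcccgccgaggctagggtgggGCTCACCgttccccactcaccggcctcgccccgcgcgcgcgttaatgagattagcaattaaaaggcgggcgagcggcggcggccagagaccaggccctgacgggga
Slc6a20b: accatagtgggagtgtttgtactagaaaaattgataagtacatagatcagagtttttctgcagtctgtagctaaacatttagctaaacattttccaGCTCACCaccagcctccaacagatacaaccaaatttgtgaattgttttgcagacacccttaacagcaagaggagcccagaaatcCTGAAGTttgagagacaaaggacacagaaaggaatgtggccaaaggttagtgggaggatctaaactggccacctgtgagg

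Slc7a9 (b0,+AT), the light chain that exchanges cystine and cationic amino acids, read 174, 202, 176, 189 and 157 CPM in Fh1-/- and 162, 140, 148, 106 and 83.8 CPM in Fh1+/+ at day 10. All but replicate 5 exceeded every control (log2 fold change 0.47 ± 0.18 SE, edgeR adjusted p = 0.126), and the value was 0.51 ± 0.21 without replicates 1 and 3. Slc6a18 read 1310, 1248, 1331, 1449 and 1791 CPM in Fh1-/- and 955, 851, 1496, 792 and 753 CPM in Fh1+/+. A single control, replicate 3, exceeded 4 of the 5 Fh1-/- libraries (log2 fold change 0.54 ± 0.21, edgeR adjusted p = 0.137), and the value without replicates 1 and 3 was 0.62 ± 0.24. For both genes the fold change was thus as large without the libraries that stood apart.

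The heavy chain Slc3a1 read 360, 913, 379, 898 and 896 CPM in Fh1-/- against 702 to 1072 CPM in Fh1+/+ at day 10. Replicates 1 and 3 lay below the controls and the other 3 did not, and the log2 fold change of -0.38 ± 0.29 SE was 0.03 ± 0.15 without them. Exons of Slc3a1 overlap those of Prepl on the opposite strand. Slc6a19 (B0AT1) showed the same 2 libraries lowest, at 77.8 and 73.8 CPM against 176 to 286 CPM in the rest of the group and 98.1 to 230 CPM in the controls (-0.02 ± 0.39). Slc1a1 (EAAT3) read 243 to 299 CPM in Fh1-/- and 246 to 391 CPM in Fh1+/+ (-0.23 ± 0.14). Slc36a2, a proton-coupled carrier of proline and glycine, was not tested by edgeR at day 10 and is given with the outlying values.

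**Figure D4:**
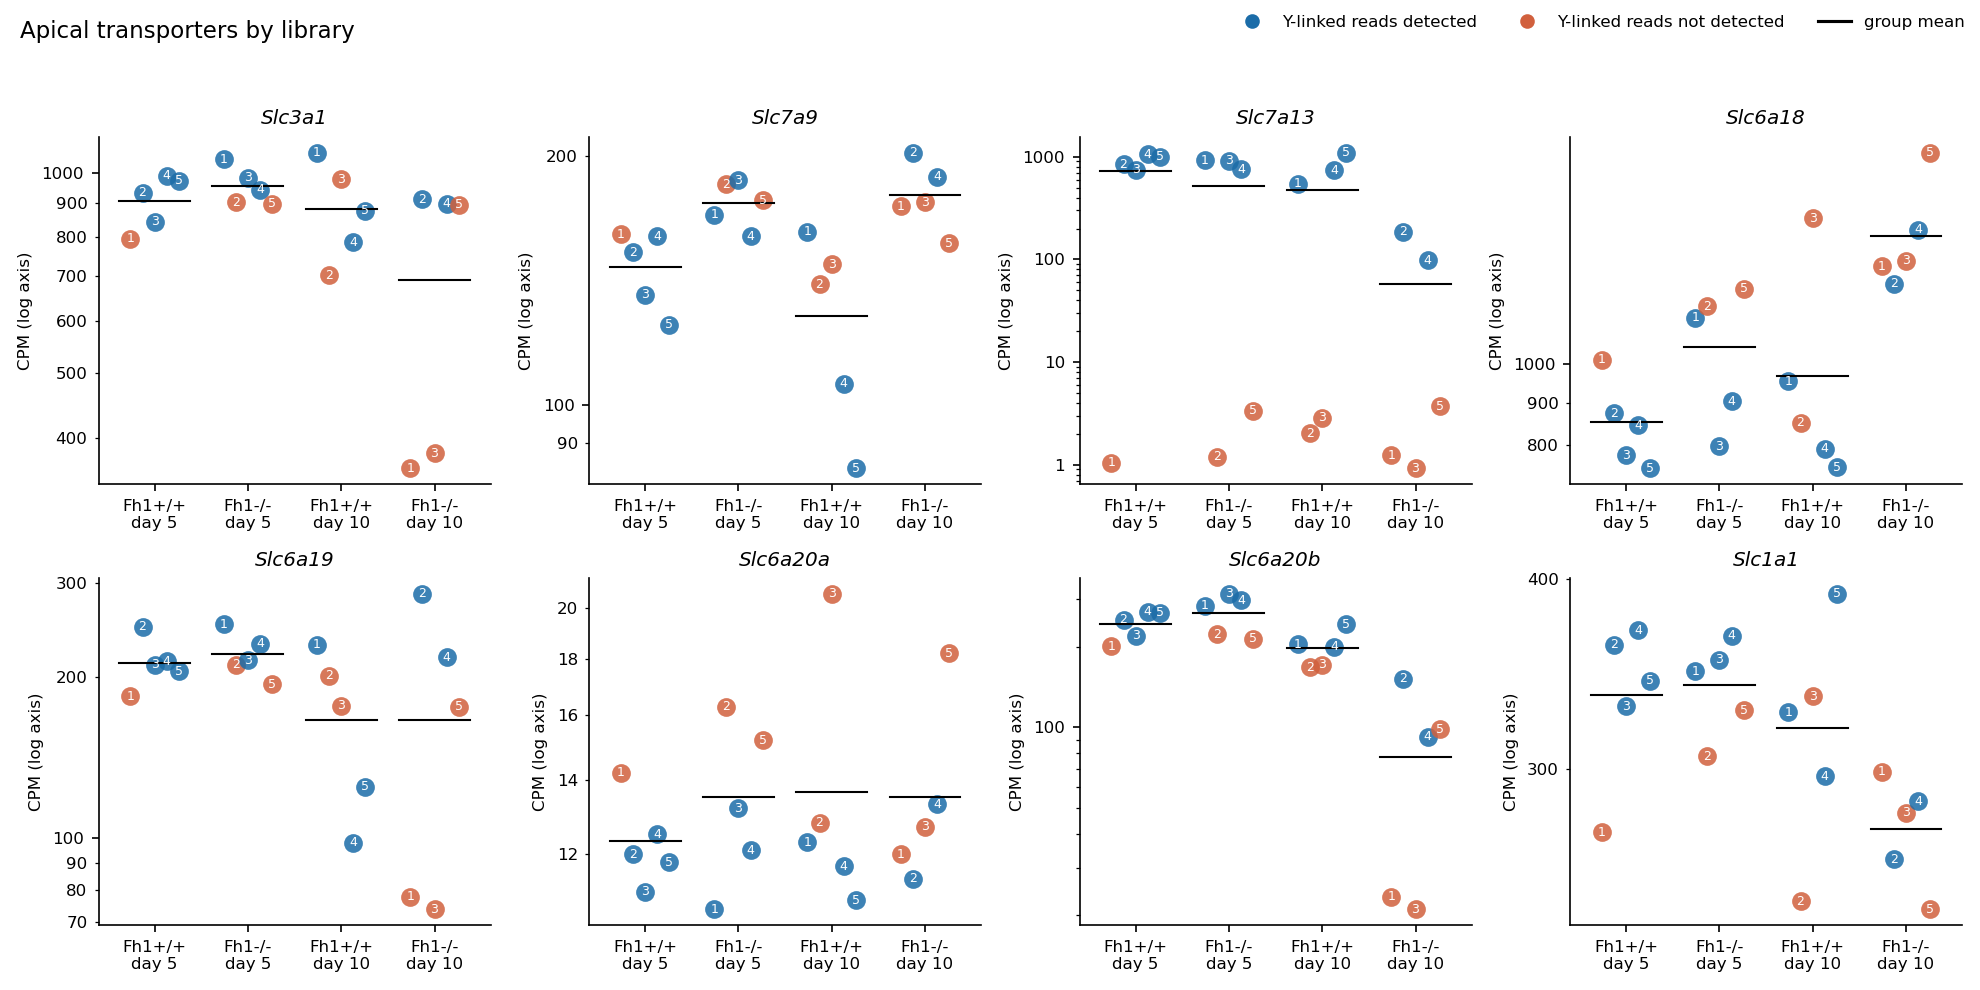
CPM (log axis) of 8 apical members in each library, by genotype and day. Numbers are replicates, colours show whether Y-linked reads were detected, and bars are group means. Slc6a20b is lower in all 5 Fh1-/- libraries of day 10, Slc3a1 and Slc6a19 are lowest in replicates 1 and 3 of that group, and Slc7a13 is near 0 wherever Y-linked reads were not detected.

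The window of Slc3a1 holds the only match among members to the HNF4 site, searched as CAAAGTCCA on both strands and found in 0.475% of all windows. It begins 39 bases before the start and is shown in capitals in the 260 bases at chr17:85028097-85028356 of GRCm38.p6, plus strand. The HNF1 letters GTTAATNAT were in no member window and in 0.801% of all windows. HNF4 and HNF1 are transcription factors of the proximal tubule.
Slc3a1: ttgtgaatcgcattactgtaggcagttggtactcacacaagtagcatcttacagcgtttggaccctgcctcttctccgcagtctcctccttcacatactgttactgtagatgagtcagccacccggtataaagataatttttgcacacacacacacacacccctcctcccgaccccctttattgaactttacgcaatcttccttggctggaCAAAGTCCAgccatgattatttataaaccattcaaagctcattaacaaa

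Slc7a13 (AGT1), a cystine, aspartate and glutamate carrier of segment S3 that also pairs with Slc3a1, followed Y-linked reads in every group. In libraries without such reads it was 0.924 to 3.73 CPM in 3 Fh1-/- and 2.03 and 2.87 CPM in 2 Fh1+/+ libraries of day 10. In libraries with them it was 187 and 97.8 CPM in Fh1-/- replicates 2 and 4 and 549, 739 and 1094 CPM in Fh1+/+ replicates 1, 4 and 5. At day 5 the libraries with Y-linked reads held 757 to 920 CPM in 3 Fh1-/- and 750 to 1054 CPM in 4 Fh1+/+ kidneys. Within these libraries, both Fh1-/- values of day 10 thus lay below all 10 other values, but with 2 libraries in the group no test was made. Fitted over all libraries of day 10, the log2 fold change was -3.05 ± 1.79 SE (edgeR adjusted p = 0.282), and with the Y-linked level as a covariate it was -1.87 ± 0.56 (edgeR adjusted p = 0.0829). S3 markers (7 genes) summed to 5595 and 5099 CPM in these 2 Fh1-/- libraries and to 5571 to 9008 CPM in the 3 controls with Y-linked reads, and in the 2 Fh1-/- libraries Slc27a2 alone made up 4469 and 4100 CPM of it. Acsm3, a gene of the list picked out after its values were seen, held 119 and 56.7 CPM in the 2 Fh1-/- libraries against 1018, 478 and 2036 CPM in the 3 controls, and at most 13.2 CPM in the libraries of day 10 without Y-linked reads. Both Fh1-/- values also lay below all 3 controls with Y-linked reads for Slc22a7, Slc22a13, Slc22a19, Slc5a8 and Cyp7b1 of the list. For Slc22a19 they were 308 and 266 CPM against 387 to 456 CPM. Those of Slc27a2 overlapped the 3707 to 5037 CPM of these controls. The part of these markers in the result was not tested.

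Slc7a12, a related gene, showed the opposite order in the controls, at 217 to 249 CPM in the 3 without Y-linked reads of both days and 18.8 to 105 CPM in the 7 with them. In Fh1-/- at day 10, replicates 1 and 3, which lacked Y-linked reads, held 11.5 and 9.88 CPM, and replicate 5, which also lacked them, held 177 CPM. The log2 fold change was -0.64 ± 0.83 SE and was 0.04 without replicates 1 and 3.

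Ratios of light to heavy chain were computed per length of exon within each library, after values had been seen. At day 10, Slc7a9 over Slc3a1 was 0.41, 0.188, 0.395, 0.179 and 0.149 in Fh1-/- and 0.128, 0.17, 0.128, 0.115 and 0.0811 in Fh1+/+. All but Fh1-/- replicate 5 exceeded every control. The mean log2 ratio was higher by 0.99 (two-sided exact permutation test, p = 0.0159, adjusted p = 0.223 over 14 ratios) and by 0.50 without replicates 1 and 3 (exact p = 0.0893). The ratio of Slc7a8 to Slc3a2 was 0.444 ± 0.148 against 0.616 ± 0.0974 (SD, n = 5; exact p = 0.0714, adjusted p = 0.333), and without replicates 1 and 3 the log2 difference was -0.85 (exact p = 0.0179, the smallest that 3 against 5 can give). None of the 14 ratios of the full groups passed after adjustment, and the smallest p that the exact permutation test of 5 against 5 allows is 0.00794. The p-values without replicates 1 and 3 were not adjusted, and these libraries were left out after the data were seen.

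In the group of osmolyte, creatine and betaine carriers, Slc6a8 is the creatine transporter. It read 376, 360, 385, 443 and 293 CPM in Fh1-/- and 281, 221, 212, 245 and 249 CPM in Fh1+/+ at day 10, so that all Fh1-/- libraries lay above all controls. The level was 1.52-fold that of the controls (log2 fold change 0.60 ± 0.13 SE), with an adjusted p of 0.0454 by edgeR and 0.000477 by DESeq2. Replicates 1 and 3 were not the highest, and the log2 fold change without them was 0.60 ± 0.15 (edgeR adjusted p = 0.102). Between the days the controls held 305 ± 26.9 CPM at day 5 and 242 ± 26.9 CPM at day 10 (SD, n = 5; log2 difference -0.34 ± 0.10 SE, edgeR adjusted p = 0.948), and Fh1-/- 295 ± 29.4 and 371 ± 53.8 CPM. The taurine carrier Slc6a6 was split like Slc7a7, at 200 and 217 CPM in Fh1-/- replicates 1 and 3 and 609 to 677 CPM in replicates 2, 4 and 5, against 298 to 584 CPM in the controls (log2 0.21 ± 0.37, and 0.68 without replicates 1 and 3). The GABA carrier Slc6a13 read 125 to 206 CPM against 132 to 172 CPM (-0.09 ± 0.15). Slc6a12, the betaine carrier of the medulla, ranged from 0.569 to 10.3 CPM in Fh1-/- and from 1.27 to 15.2 CPM in Fh1+/+ (-0.98 ± 0.95).

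In the neurotransmitter group, Slc6a7, a proline carrier best known from brain, was the only member that edgeR called in any of the 5 comparisons made, between the days in Fh1-/-. Its counts were low, it reached the level the filter asks for in 0 of 5 Fh1-/- libraries of day 10 and in all 5 of the group compared with them, and the call was lost with no filter and with a filter of 1 CPM in 5 libraries. The counts were 2, 5, 1, 1 and 6 reads in Fh1-/- and 23, 13, 20, 28 and 10 reads in Fh1+/+ at day 10, or 0.0561 to 0.281 CPM and 0.558 to 1.5 CPM. All Fh1-/- libraries lay below all controls, and the level was 0.172-fold (log2 fold change -2.54 ± 0.49 SE, adjusted p = 0.0359 by edgeR and 0.00058 by DESeq2). Without replicates 1 and 3 it was -2.23 ± 0.57 (edgeR adjusted p = 0.104). Slc6a15 (B0AT2), a carrier of branched-chain amino acids and proline, read 12.7, 35.8, 10.7, 33.4 and 27.9 CPM in Fh1-/- and 49.4, 35.8, 43.3, 35.5 and 63.1 CPM in Fh1+/+ (log2 -0.93 ± 0.34, edgeR adjusted p = 0.122, and -0.49 ± 0.20 without replicates 1 and 3). The glutamate carriers Slc1a2 (0.46 ± 0.22) and Slc1a3 (-0.30 ± 0.58), the serotonin transporter Slc6a4 (-0.42 ± 0.39) and Slc6a17 (-0.28 ± 0.23) gave edgeR adjusted p-values from 0.20 to 0.756.

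Of the lysosomal carriers, Slc38a7, which exports glutamine from lysosomes, read 23.2, 28.2, 21.6, 36.4 and 23.5 CPM in Fh1-/- and 24.1, 20.2, 22, 19.2 and 19.6 CPM in Fh1+/+ at day 10. The ranges overlapped (log2 0.32 ± 0.15 SE, edgeR adjusted p = 0.193). Slc36a1 (PAT1) read 38.1, 92, 37, 55 and 49.7 CPM against 75.1, 54.4, 50.2, 66.3 and 101 CPM (-0.37 ± 0.27, and -0.08 without replicates 1 and 3). Slc38a9, a sensor of lysosomal arginine, stayed within 11.4 to 15.8 CPM in Fh1-/- and 12.4 to 14.6 CPM in Fh1+/+ (0.01 ± 0.12). Slc36a4, a carrier of proline and tryptophan, read 1.99 to 3.77 CPM and 1.9 to 5.23 CPM (0.08 ± 0.31).

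Among the other members, Slc6a19os lies at chr13:73699826-73709853 on the plus strand, within and beyond the start of Slc6a19 (chr13:73679745-73704865, minus strand, GRCm38), and shares no exon bases with it. It read 12.3, 0.0563, 15.1, 1.51 and 0.9 CPM in Fh1-/- and 0.615, 0.0462, 0.276, 0.16 and 0.279 CPM in Fh1+/+ at day 10. Replicates 1 and 3 held 200 and 212 reads, and replicate 2 held 1. The log2 fold change of 4.39 ± 1.20 SE (adjusted p = 0.0716 by edgeR and 0.000627 by DESeq2) was 1.56 ± 0.84 without replicates 1 and 3. The filter was passed through 4 Fh1-/- libraries and 1 control, so these p-values rest on the group where the gene was high. Slc6a19 itself was lowest in the same 2 libraries. Slc7a6os read 28, 13.6, 25, 19.1 and 17.8 CPM against 16.2, 14.6, 16.2, 14.4 and 15.9 CPM (0.40 ± 0.18, and 0.12 without replicates 1 and 3). Slc38a10 (-0.12 ± 0.12), Slc7a6 (0.18 ± 0.31), Slc7a10 (0.25 ± 0.29), Slc38a6 (0.17 ± 0.23), Slc7a4 (-0.41 ± 0.25), Slc7a2 (-0.84 ± 0.42), Slc38a1 (-0.33 ± 0.32), Slc38a4 (-0.18 ± 0.45) and Slc6a14 (0.08 ± 0.51) gave edgeR adjusted p-values from 0.222 to 0.93.

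**Figure D5:**
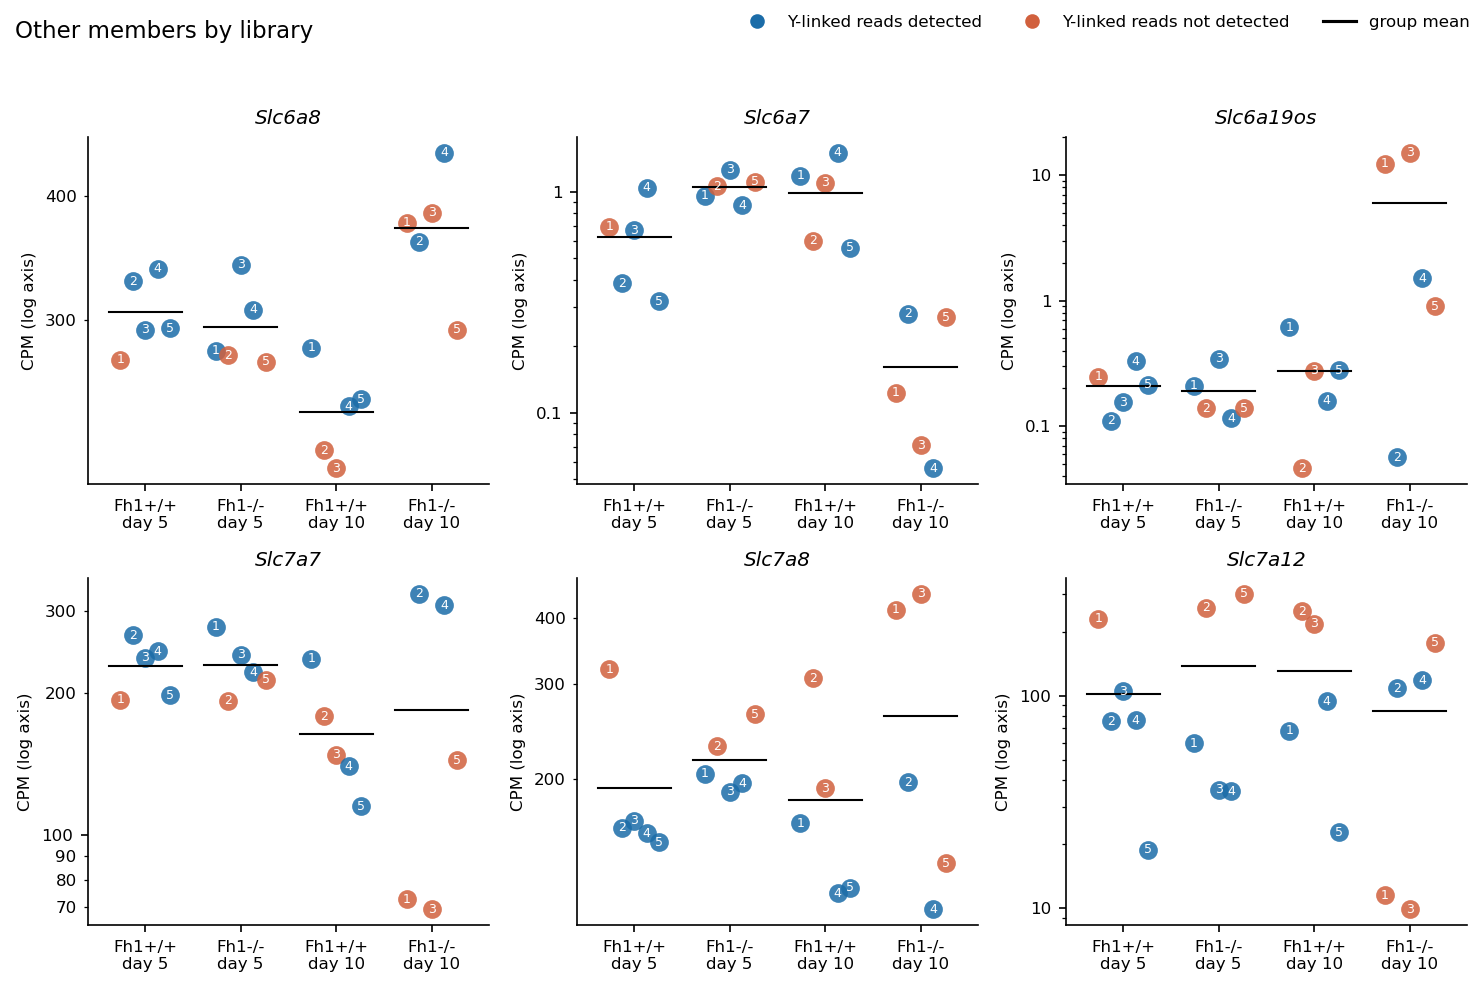
CPM (log axis) of 6 further members in each library, by genotype and day. Numbers are replicates, colours show whether Y-linked reads were detected, and bars are group means. At day 10, Slc6a8 is higher and Slc6a7 lower in all 5 Fh1-/- libraries than in any control, and Slc6a19os is high in replicates 1 and 3.

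Partner proteins and brush border peptidases were taken as a list of 6 genes. At day 10 edgeR and DESeq2 called none of them. At an unadjusted p below 0.05 in edgeR, 5 of 6 were lower (against 11.9% of all genes). The median log2 fold change was -0.65 (-0.47 without replicates 1 and 3). Tmem27 (collectrin), the partner of Slc6a18 and Slc6a19, was at 779 ± 266 CPM against 1228 ± 220 CPM (SD, n = 5; log2 -0.67 ± 0.23 SE, edgeR adjusted p = 0.112). Of 20 tested genes of the ATF4 response, edgeR called none and DESeq2 called 7 of 21 higher (against 3.26% of all genes). In edgeR an unadjusted p below 0.05 was found for 13 with higher values and 1 with lower (against 15.1% and 11.9% of all genes). The summed level of the list was 1780, 732, 1799, 1098 and 1104 CPM in Fh1-/- and 662 to 763 CPM in Fh1+/+. Their median log2 fold change was 0.84, and 0.23 without replicates 1 and 3. Atf4 itself held 167 ± 55.7 CPM against 93 ± 7.44 CPM (log2 0.83 ± 0.21 SE, adjusted p = 0.064 by edgeR and 0.0066 by DESeq2). Psat1, an enzyme of serine synthesis, held 338 ± 199 against 30.4 ± 8.98 CPM (3.46 ± 0.49, adjusted p = 0.0143 by edgeR and 1.11e-11 by DESeq2). Phgdh, of the same pathway, was the 1 with lower values. It held 1.56 ± 0.618 against 4.53 ± 3.14 CPM (-1.55 ± 0.49, adjusted p = 0.0911 by edgeR and 0.0201 by DESeq2). Slc7a11, the cystine and glutamate exchanger that the selection left out, had a log2 fold change of 0.02 ± 0.57. Of 17 tested genes of other amino acid and peptide carriers, neither tool called any. An unadjusted p below 0.05 in edgeR was found for 3 with higher and 1 with lower values (against 15.1% and 11.9% of all genes).

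At day 5 no member was called by edgeR (0 of 44, against 0.0347% of all genes in either direction) or by DESeq2 (0 of 57, against 0.177%), and no member's groups were free of overlap (against 0.909% of all genes). At an unadjusted p below 0.05 in edgeR, 3 members were higher and 2 lower (against 4.78% of all genes in either direction). They were Slc6a6 (log2 0.20 ± 0.09 SE), Slc6a7 (0.75 ± 0.31) and Slc7a9 (0.25 ± 0.09) on the one side and Slc1a3 (-0.79 ± 0.30) and Slc36a2 (-2.31 ± 0.82) on the other, with edgeR adjusted p-values from 0.881 to 1.0. Slc7a9 read 170, 185, 187, 160 and 177 CPM in Fh1-/- and 161, 153, 136, 160 and 125 CPM in Fh1+/+. The stress-induced genes had a median log2 fold change of -0.06 with 2 of 7 above 0, and the apical genes 0.07 with 7 of 9 above 0.

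Between the days, no member was called in Fh1+/+ kidneys (edgeR 0 of 44 and DESeq2 0 of 58, against 0.0% of all genes in both). At an unadjusted p below 0.05, edgeR gave 3 members lower at day 10, Slc6a8, Slc7a7 and Slc6a20b, against 3.97% of all genes in either direction. In Fh1-/- kidneys edgeR called Slc6a7 lower at day 10 (1 of 43, against 0.337% of all genes called higher and 0.239% lower). It held 0.961, 1.06, 1.26, 0.87 and 1.11 CPM at day 5 and at most 0.281 CPM at day 10 (log2 -2.64 ± 0.41 SE, edgeR adjusted p = 0.00995, and 0.0248 without replicates 1 and 3). At an unadjusted p below 0.05, 10 members were higher and 6 lower (against 17.9% and 14.4% of all genes). DESeq2 called 4 higher, Slc1a5, Slc38a2, Slc38a3 and Slc6a19os, and 2 lower, Slc6a7 and Slc6a20b, of 46 (8.7% and 4.35% of members, against 5.14% and 3.49% of all genes). Slc38a2 was at 52.3 ± 7.62 CPM at day 5 and 102 ± 28.7 CPM at day 10 (SD, n = 5; log2 0.95 ± 0.20 SE, edgeR adjusted p = 0.0201), and the log2 difference was 0.77 ± 0.20 without replicates 1 and 3. Slc6a20b was at 267 ± 45.6 and 77.5 ± 55.6 CPM (log2 -1.81 ± 0.50, edgeR adjusted p = 0.0434).

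The difference of the genotype effects between the days was tested as an interaction over all 20 libraries. These comparisons share libraries with those above. edgeR called no member (0 of 47, against 0.0335% of all genes), and 10 members had an unadjusted p below 0.05 (8 with a larger and 2 with a smaller log2 fold change at day 10, against 20.2% of all genes in either direction). DESeq2 called 2 of 46 members (against 1.8% of all genes), Slc6a8 with a difference of 0.66 ± 0.16 and Slc6a7 with -3.33 ± 0.63 (log2 ± SE, adjusted p = 0.00325 and 7.53e-05). In edgeR the adjusted p-values were 0.0511 and 0.0161. As Slc6a7 reached the level of the filter in 0 of 5 Fh1-/- libraries of day 10, its value is no support for a difference. Slc3a2 (0.81 ± 0.26) and Slc1a5 (0.86 ± 0.27) had interaction terms with edgeR adjusted p-values of 0.113 and 0.11.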

How the data were processed

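Poly(A) RNA of 20 kidney samples was sequenced from stranded libraries. According to the labels and methods, the authors used Cutadapt for adapters, STAR 2.6.0c for alignment to GRCm38, a mapping quality filter, and Rsubread for counting. What they deposited are counts per gene symbol, not normalized. The strand setting of the counting was not given in the sources used here. Besides Slc7a7, Slc3a1, Slc6a20a and Slc6a20b, exons of other members overlap those of genes on the opposite strand. These members are Slc6a9, Slc7a10, Slc7a4, Slc1a1, Slc1a2, Slc38a10, Slc38a9, Slc6a6 and Slc7a2.

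Counts were analysed with edgeR 4.0.16 in R 4.3.3 (TMM scaling, filterByExpr, quasi-likelihood F-test, Benjamini-Hochberg adjustment over all genes tested), with a separate fit for each comparison of 10 libraries and 1 fit of 20 for the interaction. A call needed an adjusted p below 0.01 and an absolute log2 fold change above 0.58. SE is the log2 fold change divided by the square root of F. CPM used TMM-scaled totals, and exon lengths came from a GRCm38 annotation. DESeq2 1.42.0, limma 3.58.1 (voom) and other filters, scalings, covariates and left-out libraries were alternatives. Both count tests were checked on simulated data, where edgeR recovered fewer of the planted changes at day 10 than DESeq2 and made fewer false calls. The simulated libraries varied independently around 1 mean per gene and genotype. None stood apart together as Fh1-/- replicates 1 and 3 do at day 10. The check therefore does not give the error rate of either test in these data. Intervals of counting error are not given, since replicate spread is larger: replicate pairs differed by 7.84 to 397 times the sampling noise (chi-square per degree of freedom), so no pair was the same library. The lowest value was that of replicates 1 and 3 of Fh1-/- at day 10, where the other pairs of the group gave 59.2 to 397. Whether these libraries came from different animals cannot be read from the labels.

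Members and gene lists were chosen with earlier results of these data known. Members of at least 1 CPM are named, with values in every library for those called by either tool and for the 2 of each group with the lowest day 10 p. A few others (Slc7a5, Slc6a18, Slc6a20a, Slc3a1, Slc7a13, Slc7a12, Slc6a6, Slc7a7) were added, and chain ratios and values by Y-linked reads computed, after values were seen.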

Additional observations from a re-analysis of the deposited data

Results flagged for a closer look

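Values far from the other 4 of their group were found in 17 of 180 pairs of a gene and a group (9.44%), over the 44 members of at least 1 CPM and Slc6a7, by Dixon's ratio of the gap to the range. For independent, normally distributed values, chance alone gives about 1 in 20. The CPM were used without a log and need not be normally distributed, so this share is only a rough guide here. In Fh1-/- at day 10, replicate 2 stood apart for Slc36a2 (11.2 CPM, the others at most 0.45) and Slc7a10 (6.02 CPM, the others at most 2.94), replicate 4 for Slc1a4 (137 CPM, the others at most 63.6), and replicate 5 for Slc6a12 (10.3 CPM, the others at most 2.47), Slc6a20a (18.2 CPM, the others at most 13.3) and Slc38a6 (6.34 CPM, the others at least 11.4). In Fh1+/+ at day 10, replicate 3 was high for Slc6a18 (1496 CPM, the others at most 955) and Slc6a20a (20.6 CPM, the others at most 12.8), and replicate 5 for Slc36a2 (10.7 CPM, the others at most 2.62). At day 5, Fh1-/- replicate 2 was high for Slc36a2 (1.06 CPM, the others at most 0.325) and replicate 3 for Slc7a4 (9.92 CPM, the others at most 8.44). In Fh1+/+ at day 5, replicate 1, the only one without Y-linked reads, was low for Slc7a13 (1.04 CPM, the others at least 750) and Slc38a9 (10.9 CPM, the others at least 12.9) and high for Slc7a8 (320 CPM, the others at most 167). Replicate 3 of that group was high for Slc6a12 (16.6 CPM, the others at most 2.37) and Slc7a6 (14.9 CPM, the others at most 7.55), and replicate 4 was low for Slc6a17 (24.5 CPM, the others at least 33.6).

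DESeq2 called a difference of the genotype effects between the days for Slc6a8 (log2 difference 0.66, day 10 minus day 5) and Slc6a7 (-3.33). By edgeR the adjusted p-values of these differences were 0.0511 and 0.0161, which miss the threshold of 0.01. Slc6a7 reached the level of the filter in 0 of 5 Fh1-/- libraries of day 10, with 1 to 6 reads each. Its value is therefore no support for a difference.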

How the results depend on the processing

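Counts of called members depended on the tool and the fit. At day 10 the count was 0 in edgeR and was 5 with DESeq2, 5 with 1 edgeR fit of all libraries, 2 at an adjusted p below 0.05 with no fold threshold, and 1 with DESeq2 without Fh1-/- replicates 1 and 3 (an alternative chosen after seeing the data). It was 0 under the other scalings, filters, covariate, weights and left-out libraries. At day 5 and between the days in Fh1+/+ it was 0 under every alternative run. Between the days in Fh1-/- the count was 1 and became 6 with DESeq2, 7 with 1 fit of all libraries, 5 at an adjusted p below 0.05, 5 with DESeq2 without replicates 1 and 3, 4 with the Y-linked covariate, 2 with limma-voom weights, and 0 with no filter, with a filter of 1 CPM in 5 libraries and without replicates 1 and 3. For the interaction it was 0 and became 2 with DESeq2, and 1 with the Y-linked covariate, at an adjusted p below 0.05, and with DESeq2 without replicates 1 and 3. Leaving out 1 library at a time gave 0 to 0 calls for both genotype comparisons and for Fh1+/+ between the days, 0 to 5 in Fh1-/- between the days and 0 to 1 for the interaction. Each count above the main one came without Fh1-/- day 10 replicate 2. The edgeR call of Slc6a7 in Fh1-/- between the days (adjusted p 0.00354 to 0.0343 over left-out libraries) was kept in 1 of these 10 fits. The cause of these differences was not tested.

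Of 4620 alternative log2 fold changes of named members, 4572 kept their side of the threshold, 36 gained and 12 lost a call, and 0 called values changed sign. Only 1 of the 220 main values was a call, that of Slc6a7 in Fh1-/- between the days, and all 12 losses were of it. Most values that kept their side were thus uncalled throughout, and their number does not measure how firm a call is. Deviations from the group means correlated at -0.514 to 0.329 between samples of the same replicate number. Correlations between different numbers were not computed, so pairing by number or by litter is not excluded. With the replicate number as a block the counts were 0 in all 5 comparisons, also for Fh1-/- between the days. Counts of a few reads limit Slc6a7 and Slc6a19os.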

Other observations

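In the 10 control libraries of both days, the values of some members did not overlap between the 7 libraries with Y-linked reads and the 3 without. Besides Slc7a13 and Slc7a12, the exchanger Slc1a4 was at 57.4 to 98.8 CPM with them and 27.7 to 32.2 CPM without, and the glycine carrier Slc6a9 at 33.9 to 51.5 CPM and 17.6 to 20.8 CPM. Slc7a8 showed the opposite order, at 122 to 167 CPM with them and 192 to 320 CPM without. Slc38a6 and Slc7a4 were higher with Y-linked reads, and Slc6a20a and Slc38a4 were higher without. How many genes of the whole table do so was not counted. No test was made, since the libraries were divided after the values were seen and the labels do not give the sex of the animals.

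Slc36a2 was highest in the 2 libraries with the highest summed fat and adrenal markers, at 11.2 CPM in Fh1-/- day 10 replicate 2 (markers 72.6 CPM) and 10.7 CPM in Fh1+/+ day 10 replicate 5 (markers 101 CPM). The first of these also held 13.4 CPM of the noradrenaline carrier Slc6a2 and 1.91 CPM of Slc7a14, of which no other library held more than 0.31 and 0.058 CPM. The part of these markers in the values was not tested.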
